A study of Homo sapiens with 10 samples.

Results

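The clustered protocadherin genes were the 53 GENCODE protein-coding genes whose symbols start with PCDHA, PCDHB or PCDHG followed by A, B, C or a number, out of 20033 protein-coding genes in all. They comprise 15 alpha, 16 beta and 22 gamma genes, all on the plus strand of chromosome 5, and together they span chr5:140786140-141512975 of GRCh38. Histone H3 acetylated at lysine 27 (H3K27ac) or at lysine 18 (H3K18ac), both marks of active promoters and enhancers, was mapped by ChIP-Seq in a pair of prostate cancer lines. The parent, C4-2B, is a castration-resistant human prostate adenocarcinoma line. Its derivative C4-2BER resists enzalutamide, an antiandrogen drug, is kept in the drug and is called neuroendocrine-like by the labels. Each mark had 2 libraries per line, beside 1 input library per line. The authors merged the libraries before they called peaks, so that 4 peak lists were compared, 1 per mark and line, with no replicate error and therefore no test. The derivative is 1 line, so the drug, the selection and the drift of that line cannot be told apart.

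Clustered protocadherins are cell-surface adhesion proteins of the cadherin family that bind the same isoform on a facing cell, and in the nervous system they give neurons a surface identity. In the alpha and gamma subclusters each gene has its own promoter and its own long first exon, which is spliced to short exons shared by the whole subcluster, whereas the beta genes have no shared exons. A neuron uses a small, randomly chosen set of the alternate promoters, while the C-type genes at the ends of the alpha and gamma subclusters are used more uniformly. Most of the promoters carry a conserved element with the core CGCT, close to which CTCF and cohesin bind and loop the promoter to enhancers that lie downstream of the alpha and of the gamma genes.

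The core was looked for in the promoter sequences of RefSeq on GRCh38.p14, which cover 250 bases before to 50 bases after the start, and 46 of the 53 members had an entry at the canonical transcription start site (TSS). PCDHA3, PCDHA13, PCDHB6, PCDHB11, PCDHGB2, PCDHGA12 and PCDHGC5 had none. CGCT stood on the strand of the gene within 100 bases upstream of the TSS in 44 of the 46, or 95.7%. The share was 34.8% over the 21613 promoter entries of protein-coding genes, which unlike those of the members were not limited to canonical starts. These entries are what is meant by all promoters in the sequence counts. The match farthest upstream lay 95 to 11 bases before the TSS, with a median of 59 bases before it. The exceptions were PCDHA9 and PCDHB8. The canonical TSS of PCDHA9, at 140848382, lies inside the gene, which starts at 140847772, and its entry did not reach the gene start. The canonical TSSs of PCDHA11 and PCDHGA8 also lie inside their genes, yet these had a match 58 and 49 bases before the TSS. Why PCDHA9 and PCDHB8 had none was not tested. Only the 4 letters CGCT were searched and not the rest of the element, so a match is not shown to be the element. On either strand anywhere in the 300 bases, these 4 letters were in 97.8% of member promoters and 80.0% of all promoters, a smaller difference than for the position near the start. The windows below show 20 bases on each side of the core, in capitals, for members on which the results turn, beginning with the alpha genes, whose H3K18ac peaks differed most between the lines.
PCDHA1: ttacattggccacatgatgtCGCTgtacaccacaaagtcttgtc
PCDHA6: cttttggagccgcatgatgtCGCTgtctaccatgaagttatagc
PCDHA7: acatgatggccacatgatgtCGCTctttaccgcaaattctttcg
PCDHAC1: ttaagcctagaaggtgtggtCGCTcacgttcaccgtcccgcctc
PCDHAC2: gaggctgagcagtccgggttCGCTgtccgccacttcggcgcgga

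For each subcluster the most shared 8-base string was picked from these same promoters. Its higher share there follows from that choice and is no test. For the alpha genes it was ATGTCGCT, in 9 of the 13 promoters with an entry and in 0.236% of all promoters. The windows of both C-type promoters lack it. The beta genes are represented by PCDHB1 and PCDHB2, the only beta genes with a peak within 1000 bp of the TSS.
PCDHB1: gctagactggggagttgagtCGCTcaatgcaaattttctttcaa
PCDHB2: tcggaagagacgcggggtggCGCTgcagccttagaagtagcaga

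The string picked for the beta genes, GGTGGCGC, which overlaps the core, was in 13 of 14 beta promoters, PCDHB2 included, and in 2.68% of all promoters. For the gamma genes the windows are those of members with an H3K27ac peak in C4-2BER, PCDHGA8 left out, and of PCDHGB4, which is shown for its likeness to PCDHGB5.
PCDHGA2: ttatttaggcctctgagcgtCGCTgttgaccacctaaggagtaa
PCDHGB1: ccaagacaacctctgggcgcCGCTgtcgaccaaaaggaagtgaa
PCDHGA4: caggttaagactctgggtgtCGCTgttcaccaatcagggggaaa
PCDHGB3: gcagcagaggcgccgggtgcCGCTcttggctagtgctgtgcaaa
PCDHGA7: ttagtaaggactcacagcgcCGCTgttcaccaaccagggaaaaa
PCDHGB5: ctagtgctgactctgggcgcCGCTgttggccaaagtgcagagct
PCDHGA10: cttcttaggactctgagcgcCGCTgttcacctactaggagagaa
PCDHGC3: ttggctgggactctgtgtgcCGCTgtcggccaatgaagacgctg
PCDHGB4: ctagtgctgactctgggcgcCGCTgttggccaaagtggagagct

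GCCGCTGT, the string picked for the gamma genes, was in 11 of 19 gamma promoters and in 1.86% of all promoters. Over the 44 bases, the windows of PCDHGB4 and PCDHGB5 differed at 1 base and were the closest of 136 gamma pairs, whose median was 26.0 shared bases. A match is a description of these letters and no evidence that a factor binds there.

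Member promoters carried far fewer H3K27ac peaks than promoters in general, and had more of them in C4-2BER than in C4-2B. A promoter was counted as marked when a deposited peak lay within 1000 bp of its canonical TSS, and its value was the highest fold enrichment of those peaks, a ratio to the local background of the same list. Of the 53 members, 3 had an H3K27ac peak in C4-2B and 10 in C4-2BER, against 69.1% and 69.6% of all protein-coding promoters. H3K18ac peaks were at 27 members in C4-2B and at 22 in C4-2BER, against 83.8% and 81.1% of all promoters. No peak in any of the 4 lists was found at 19 of the 53, against 13.9% of all promoters, and 3 had a peak in all 4, namely PCDHGA4, PCDHGA10 and PCDHGC3. Even where present the peaks were low. The median H3K27ac fold enrichment of marked members was 4.65 in C4-2B (n = 3) and 3.84 in C4-2BER (n = 10), against 18.2 and 12.4 over all marked promoters. For H3K18ac the medians were 2.75 (n = 27) and 2.94 (n = 22), against 7.00 and 5.59. The reads behind the lists were pooled and their depth is unknown, and in cells measured in bulk, fewer cells with the mark and less mark per cell cannot be told apart.

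**Figure D1:**
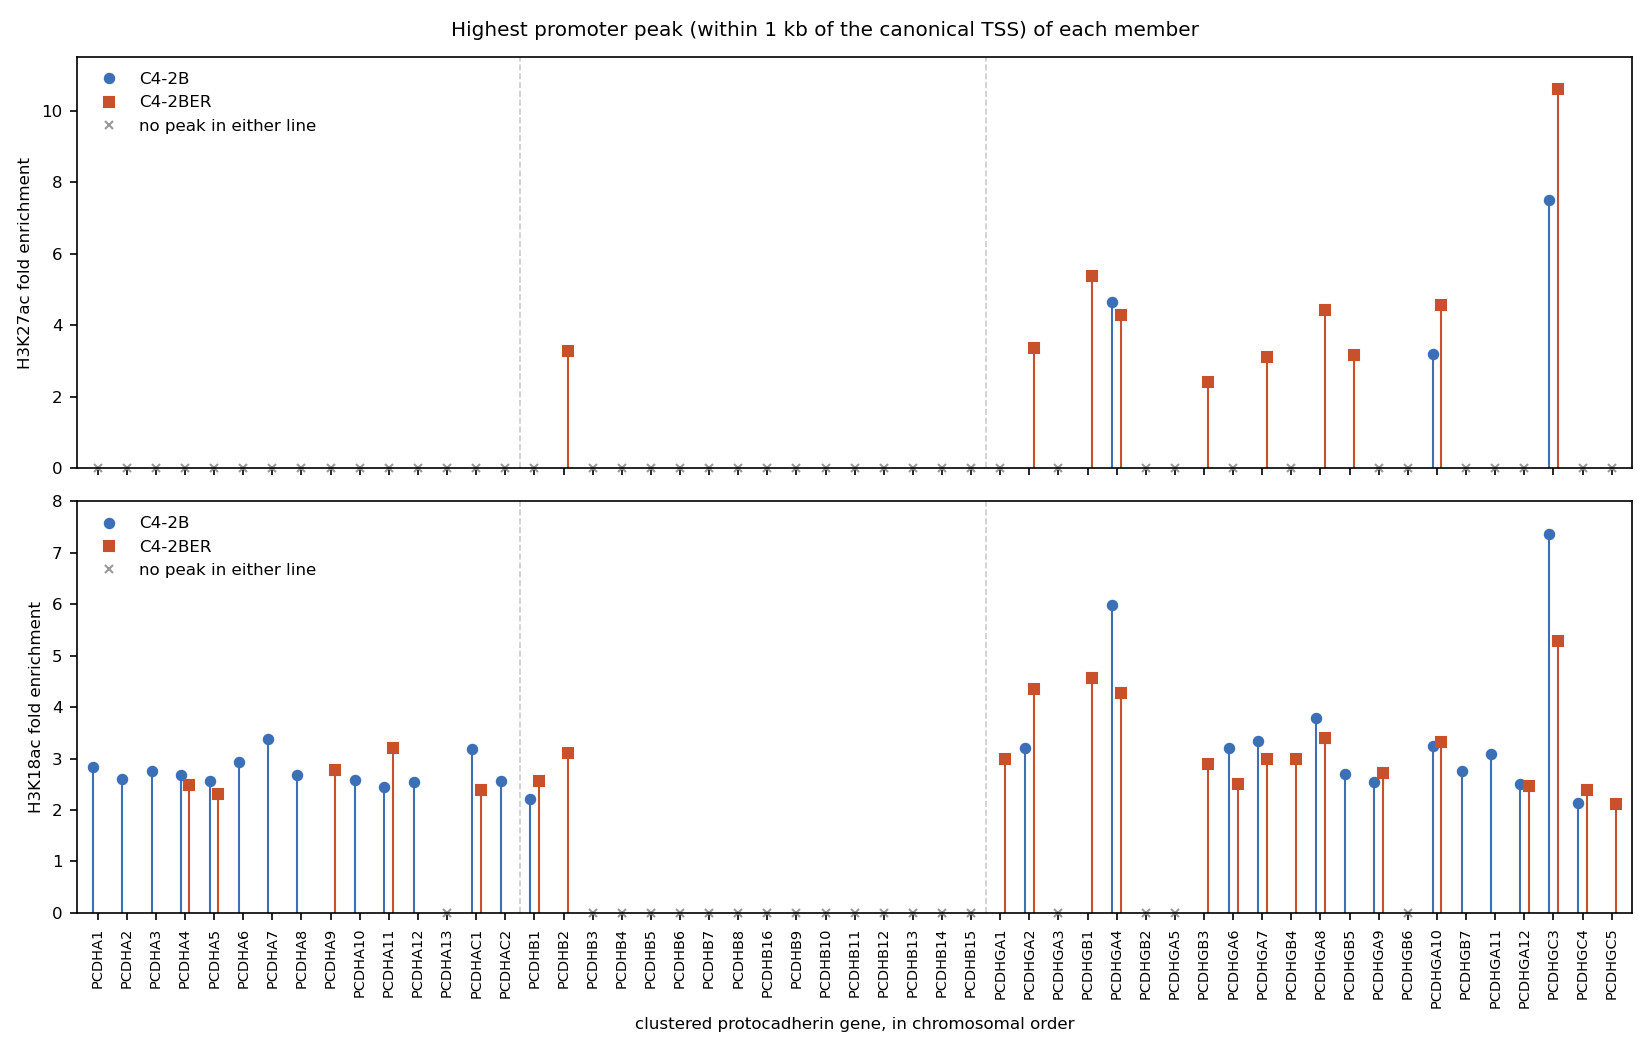
Fold enrichment (y axis, a ratio to the local background of the list) of the highest H3K27ac peak (top) and H3K18ac peak (bottom) within 1 kb of the TSS of each of the 53 members in chromosomal order, for C4-2B (blue circles) and C4-2BER (orange squares), where crosses mark members without a peak in either line and dashed lines separate the alpha, beta and gamma genes. H3K27ac was at 3 members in C4-2B and 10 in C4-2BER, and 14 beta genes carried neither mark.

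The change between the lines was read from the presence of peaks. A promoter was called increased in C4-2BER when C4-2B had no peak there, or when its fold enrichment was at least 2 times as high as in C4-2B. The reverse was called decreased. H3K27ac was increased at 7 members and decreased at 0, against 3.31% and 8.01% of all promoters. H3K18ac was increased at 7 and decreased at 12, against 2.1% and 6.12%. Of the 34 members with an H3K18ac peak, these were 20.6% and 35.3%. Among the 9281 promoters whose H3K18ac peak did not exceed the strongest of the members, the shares were 4.42% and 10.5%. The marked promoters behind the H3K27ac shares were mostly stronger, with medians of 18.2 in C4-2B and 12.4 in C4-2BER. No share limited to weak promoters was taken for H3K27ac. The balance of H3K18ac turned with stricter limits on the peaks. With peaks of at least 4-fold only it was increased at 2 and decreased at 0, against 1.62% and 6.12% of all promoters. When the −log10 q-value had to reach 5 it was increased at 4 and decreased at 0, against 2.4% and 3.62%. Most of these calls arose because the limit removed the C4-2B peak of a member marked in both lines. These were PCDHGA2 under both limits, and PCDHGA7 and PCDHGA10 under the second. PCDHGB1 alone had no C4-2B peak. H3K27ac was increased at 3 and 6 under these limits, against 1.93% and 2.64% of all promoters. It was decreased at 0 under both, against 7.01% and 6.74%. PCDHGA10, with H3K27ac in both lines, counted as increased under both limits because its C4-2B peak was removed. Every one of the calls at members without such limits came from a peak in 1 line only. Both marks were increased at 3 members, PCDHB2, PCDHGB1 and PCDHGB3, against 0.349% of all promoters, and both were decreased at 0, against 1.19%.

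**Figure D2:**
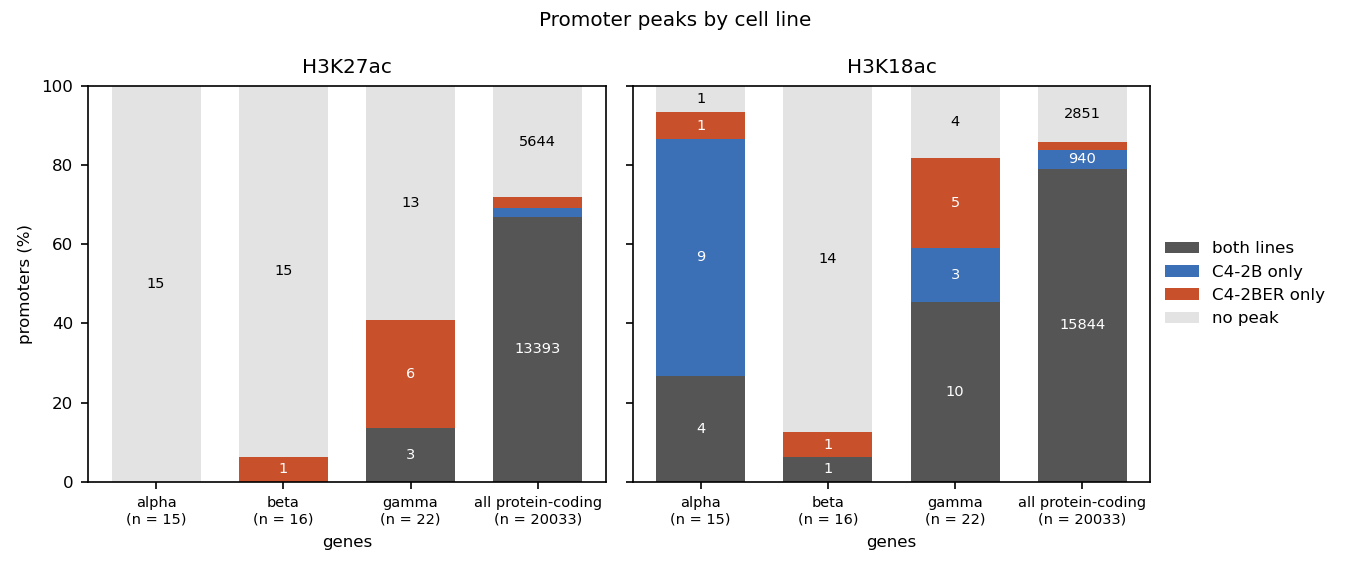
Percent of promoters (y axis) with a peak in both lines, in either line alone or in neither, for the 15 alpha, 16 beta and 22 gamma genes and for all 20033 protein-coding genes, with the number of genes in each part of the bar; H3K27ac is on the left and H3K18ac on the right. H3K27ac was found in C4-2BER alone at 6 gamma genes and H3K18ac in C4-2B alone at 9 alpha genes.

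The gamma genes held 9 of the 10 members with H3K27ac in C4-2BER. PCDHGA2, PCDHGB1, PCDHGB3, PCDHGA7, PCDHGA8 and PCDHGB5 carried H3K27ac in C4-2BER alone, as did 2.7% of all promoters. PCDHGB1 was the strongest of these 6 gamma genes. Its fold enrichment was 5.39 at a −log10 q-value of 17.3, and exceeded that of 70.6% of the peaks in its list. That peak and the H3K18ac peak of PCDHGB1 also lay within 1000 bp of the TSS of the non-coding gene ENSG00000280026. PCDHGA8 followed with 4.42 and a −log10 q-value of 21.6. Both values are above the median peak of the C4-2BER list, 3.31, and well under the median marked promoter. PCDHGA2 had 3.38, PCDHGB5 3.16, PCDHGA7 3.11 and PCDHGB3 2.42, the last with a −log10 q-value of only 2.03. The lowest −log10 q-value kept in that list was 1.01.

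PCDHGC3, PCDHGA10 and PCDHGA4 had an H3K27ac peak in both lines. PCDHGC3, a C-type gene, was the strongest member in each, with a fold enrichment of 7.49 in C4-2B and 10.6 in C4-2BER, a log2 ratio of 0.50. PCDHGA10 had 3.19 and 4.57, a log2 ratio of 0.52, and PCDHGA4 had 4.65 and 4.30, a log2 ratio of −0.12. None of these ratios reached 2. The fold enrichments of the C4-2BER list were lower as a whole, since the median log2 ratio over the 13393 promoters marked in both lines was −0.51 for H3K27ac, and only 1577 of them were higher in C4-2BER. Relative to that median, PCDHGC3 and PCDHGA10 lay at 1.01 and 1.03 and passed the 2-fold limit. This raised the increased members from 7 to 9, against 4.7% of all promoters on that scale. PCDHGA4 lay at 0.40 on that scale, so its direction depends on the scaling.

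From PCDHGA2 to PCDHGA10, 15 of the 22 gamma genes over 74.2 kb, 8 had an H3K27ac peak in C4-2BER and 2 in C4-2B. In the same stretch, which was chosen after the values were seen, the promoters of PCDHGA3, PCDHGB2, PCDHGA5 and PCDHGB6 had neither mark in either line. Peaks over exons farther from the TSS were found at 3 of these 4 genes. H3K18ac was there in C4-2B at PCDHGA3, 2.25, and at PCDHGB6, 2.31, while PCDHGA5 had it in both lines and H3K27ac in C4-2B.

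H3K18ac at the gamma genes was about as frequent in both lines, at 13 members in C4-2B and 15 in C4-2BER, but not always at the same members. There were 10 with it in both lines, 3 in C4-2B only (PCDHGB5, PCDHGB7 and PCDHGA11) and 5 in C4-2BER only (PCDHGA1, PCDHGB1, PCDHGB3, PCDHGB4 and PCDHGC5). Over all promoters, 79.1% had it in both lines, 4.69% in C4-2B only and 1.99% in C4-2BER only. Of the 3107 promoters with a highest H3K18ac peak of up to 3.39-fold, 28.0% were decreased and 10.9% increased. PCDHGB1 was again the strongest of the members with a peak in C4-2BER alone, at 4.56-fold, which exceeds 90.4% of its list. PCDHGB4 and PCDHGA1 had 3.00, and PCDHGC5, a C-type gene, had 2.11, near the limit of the list. The C4-2B peak of PCDHGA11 had 3.09, and those of PCDHGB7 and PCDHGB5 had 2.75 and 2.70.

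Where H3K18ac was present in both lines it mostly differed little. PCDHGC3 went from 7.36 in C4-2B to 5.29 in C4-2BER and PCDHGA4 from 5.98 to 4.27, log2 ratios of −0.48 and −0.49, while PCDHGA2 went from 3.21 to 4.36, a log2 ratio of 0.44. PCDHGA8 had 3.79 and 3.40, PCDHGA7 had 3.35 and 2.99, and PCDHGA10 had 3.25 and 3.32. PCDHGA7 and PCDHGA8, which had H3K27ac in C4-2BER alone, thus had H3K18ac of nearly the same fold enrichment in both lines. Over the 15 members of all subclusters with H3K18ac in both lines, the log2 ratio ranged from −0.49 to 0.44 with a median of −0.11, and 6 of the 15 were higher in C4-2BER. The median over 15844 promoters marked in both lines was −0.34, so that relative to it the members' median was 0.22. At PCDHGC3 the marks pointed in opposite directions on the deposited scale, with H3K27ac higher and H3K18ac lower in C4-2BER. Relative to all promoters, its H3K18ac difference shrank to −0.14 and that of PCDHGA4 to −0.15.

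At a pair of gamma genes with nearly identical windows the calls went different ways. PCDHGB5 had H3K27ac in C4-2BER only and H3K18ac in C4-2B only, the only such case among the 53. PCDHGB4, from which it is separated by PCDHGA8, had H3K18ac in C4-2BER only. In both genes 75.6% of the 50-base words in the promoter window occur once in GRCh38, whereas at the median gamma gene every such word does, and the windows printed above differ at a single base. How reads were divided between the pair was not tested.

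The alpha genes carried H3K18ac without H3K27ac, and carried it mostly in C4-2B. None of the 15 had an H3K27ac peak in either line. H3K18ac was at 13 in C4-2B and at 5 in C4-2BER. It was in C4-2B only at 9 (PCDHA1, PCDHA2, PCDHA3, PCDHA6, PCDHA7, PCDHA8, PCDHA10, PCDHA12 and PCDHAC2), in both lines at 4 (PCDHA4, PCDHA5, PCDHA11 and PCDHAC1) and in C4-2BER only at 1, PCDHA9, while PCDHA13 had none. From PCDHA1 to PCDHA8, 8 genes over 55.0 kb, all 8 were marked in C4-2B and 2 in C4-2BER. The peaks of PCDHA6, PCDHA9, PCDHA12 and PCDHAC2 also lay within 1000 bp of the TSS of a non-coding gene.

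These alpha peaks were weak. In C4-2B the fold enrichment ranged from 2.45 to 3.39 with a median of 2.68, near the 2.74 of the whole list, and the −log10 q-value from 1.73 to 3.82. PCDHA7 had the highest, 3.39, followed by PCDHAC1 with 3.19, PCDHA6 with 2.93, PCDHA1 with 2.83 and PCDHA3 with 2.75. In C4-2BER the highest was PCDHA11 with 3.21, against 2.45 in C4-2B, and PCDHA9 had 2.77. PCDHAC1 went from 3.19 to 2.39, a log2 ratio of −0.42, whereas PCDHAC2, a C-type gene known for its use in serotonin neurons, had 2.57 in C4-2B and no peak in C4-2BER. No alpha peak in either line reached a −log10 q-value of 5 or a fold enrichment of 4, so with either limit the 9 decreased alpha promoters became 0. Among the 3107 protein-coding promoters whose highest H3K18ac peak did not exceed that of PCDHA7, 28.0% were decreased and 10.9% increased, against 9 and 1 of the 14 marked alpha genes, 64.3% and 7.14%. At the median alpha gene 94.7% of the 50-base words of the promoter window were unique in the genome. The share was 73.5% at PCDHA7 and lowest, 70.9%, at PCDHA9. How reads were divided among similar alpha genes was not tested. A missing peak means only that the signal did not pass the authors' limit.

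The beta promoters were nearly bare. All 14 genes from PCDHB3 to PCDHB15, over 145.0 kb, had no peak of either mark within 1000 bp of the TSS in either line. Outside these windows, C4-2B had H3K18ac peaks over exons of PCDHB5, at 2.48-fold, and PCDHB7, at 2.72-fold. PCDHB1 had H3K18ac in both lines, 2.22 in C4-2B and 2.57 in C4-2BER. PCDHB2 had both marks in C4-2BER only, H3K27ac at 3.28-fold and a −log10 q-value of 5.19, and H3K18ac at 3.11-fold and 4.18. Its window printed above holds the GGTGGCGC that was in 13 of 14 beta promoters. At the median beta gene every 50-base word of the promoter window was unique in the genome, and the lowest share of unique words, 61.3%, was at PCDHB8 and PCDHB13.

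The C-type genes ranged from the strongest member to nearly unmarked. PCDHGC3 had both marks in both lines. PCDHAC1 and PCDHGC4, the latter a gene needed for the survival of interneurons in mice, had only H3K18ac, in both lines, and PCDHGC4 had 2.13 and 2.38. PCDHAC2 had H3K18ac in C4-2B only and PCDHGC5 in C4-2BER only.

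Both alpha and gamma peaks lay mainly over the coding part of the first exon. Most gamma peaks of C4-2BER also covered the TSS, whereas most alpha peaks, and most gamma peaks of C4-2B, did not. The median share of a peak inside that coding part was 100% for alpha H3K18ac of C4-2B. For gamma H3K18ac the median share was 84.4% in the parent and 79.5% in the derivative. For gamma H3K27ac of C4-2BER it was 65.4%. Of the 13 H3K18ac peaks at alpha genes in C4-2B, 2 covered the TSS, those of PCDHAC1 and PCDHAC2, and 10 lay wholly within the coding part of the first exon. They began at a median of 156 bp after the TSS and were short, with a median of 294 bp, but those of PCDHA3 and PCDHA4 extended over 2229 and 2149 bp. Over all protein-coding genes the strongest H3K18ac peak covered the TSS at 94.1% of marked promoters in C4-2B, and at 77.0% of those whose peak did not exceed 3.5. At the gamma genes, 4 of 13 H3K18ac peaks covered the TSS in C4-2B and 10 of 15 in C4-2BER, where the shares over all marked promoters and over those up to 3.5 were 93.5% and 73.8%. For H3K27ac it was 1 of 3 in C4-2B, against 94.3% and 57.7%, and 7 of 9 in C4-2BER, against 94.9% and 62.1%. The CGCT core itself was under the H3K27ac peak of 2 of the 9 gamma genes in C4-2BER.

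**Figure D3:**
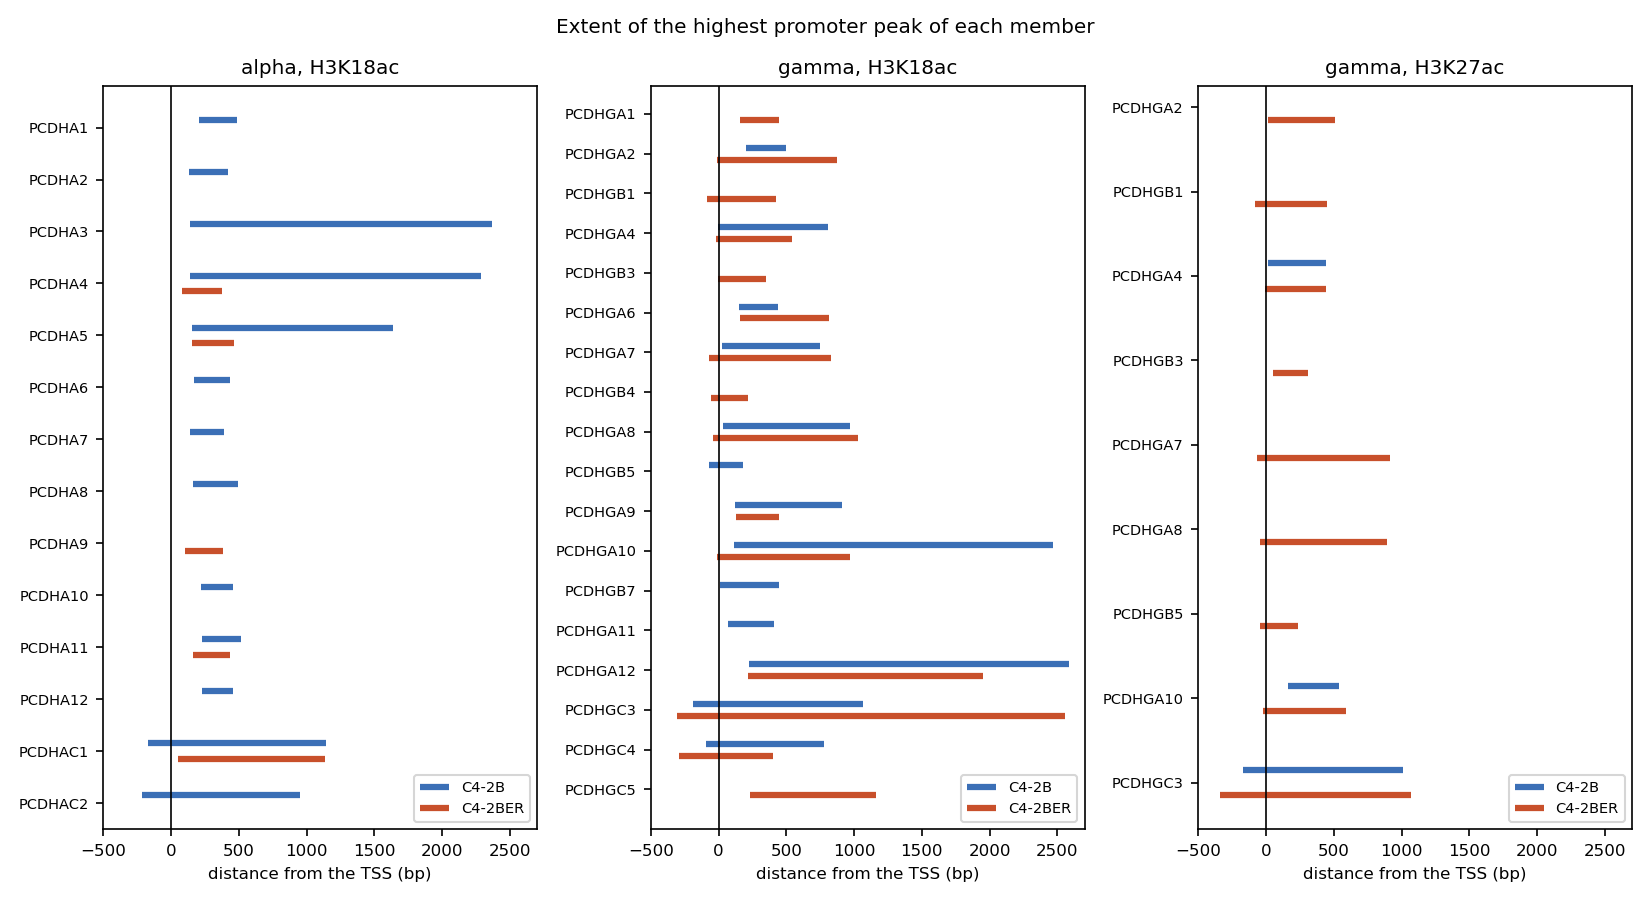
Start and end of the highest promoter peak of each marked member, in bp from its TSS (x axis, vertical line at 0), for C4-2B (blue) and C4-2BER (orange), with alpha H3K18ac on the left, gamma H3K18ac in the middle and gamma H3K27ac on the right. The alpha peaks began at a median of 156 bp after the TSS in C4-2B, and 7 of the 9 gamma H3K27ac peaks in C4-2BER reached across the TSS.

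Over the cluster with 50 kb to each side, H3K27ac peaks were more and H3K18ac peaks fewer in C4-2BER in the lists as deposited. There were 9 H3K27ac peaks covering 5816 bp in C4-2B and 15 covering 9700 bp in C4-2BER, which is 0.703% and 1.17% of the interval. The mean fold enrichment weighted by length was 6.62 and 6.17. H3K18ac had 65 peaks covering 51553 bp in C4-2B and 35 covering 26001 bp in C4-2BER, 6.23% and 3.14% of the interval, with a mean fold enrichment of 3.00 and 3.34. With peaks of at least 4-fold only, H3K18ac covered 0.69% in C4-2B and 0.723% in C4-2BER, and when the −log10 q-value had to reach 5 it covered 0.803% and 1.43%, so that C4-2BER was then the higher. The covered length was smaller in C4-2BER over the alpha genes, 13249 against 2250 bp, and over the gamma genes, 28084 against 18661 bp. Genome-wide, H3K18ac had 198451 peaks in C4-2B, covering 293 Mb, and 197948 in C4-2BER, covering 321 Mb. The H3K27ac list was larger in C4-2BER, with 72971 peaks over 145 Mb against 68034 over 117 Mb, the direction also seen in the cluster.

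When overlapping peaks of the lines were merged into regions, 10 of 19 H3K27ac regions of the interval were found in C4-2BER alone and 4 in C4-2B alone, against 29.1% and 20.3% of the 89877 regions of the genome. Of 76 H3K18ac regions, 41 were in C4-2B only and 12 in C4-2BER only, against 23.3% and 26.1% of 247646. Of the 41, 12 were at member promoters and 29 elsewhere, so the difference in H3K18ac was not confined to starts. For H3K27ac, 7 of the 10 regions of C4-2BER alone were at member promoters.

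**Figure D4:**
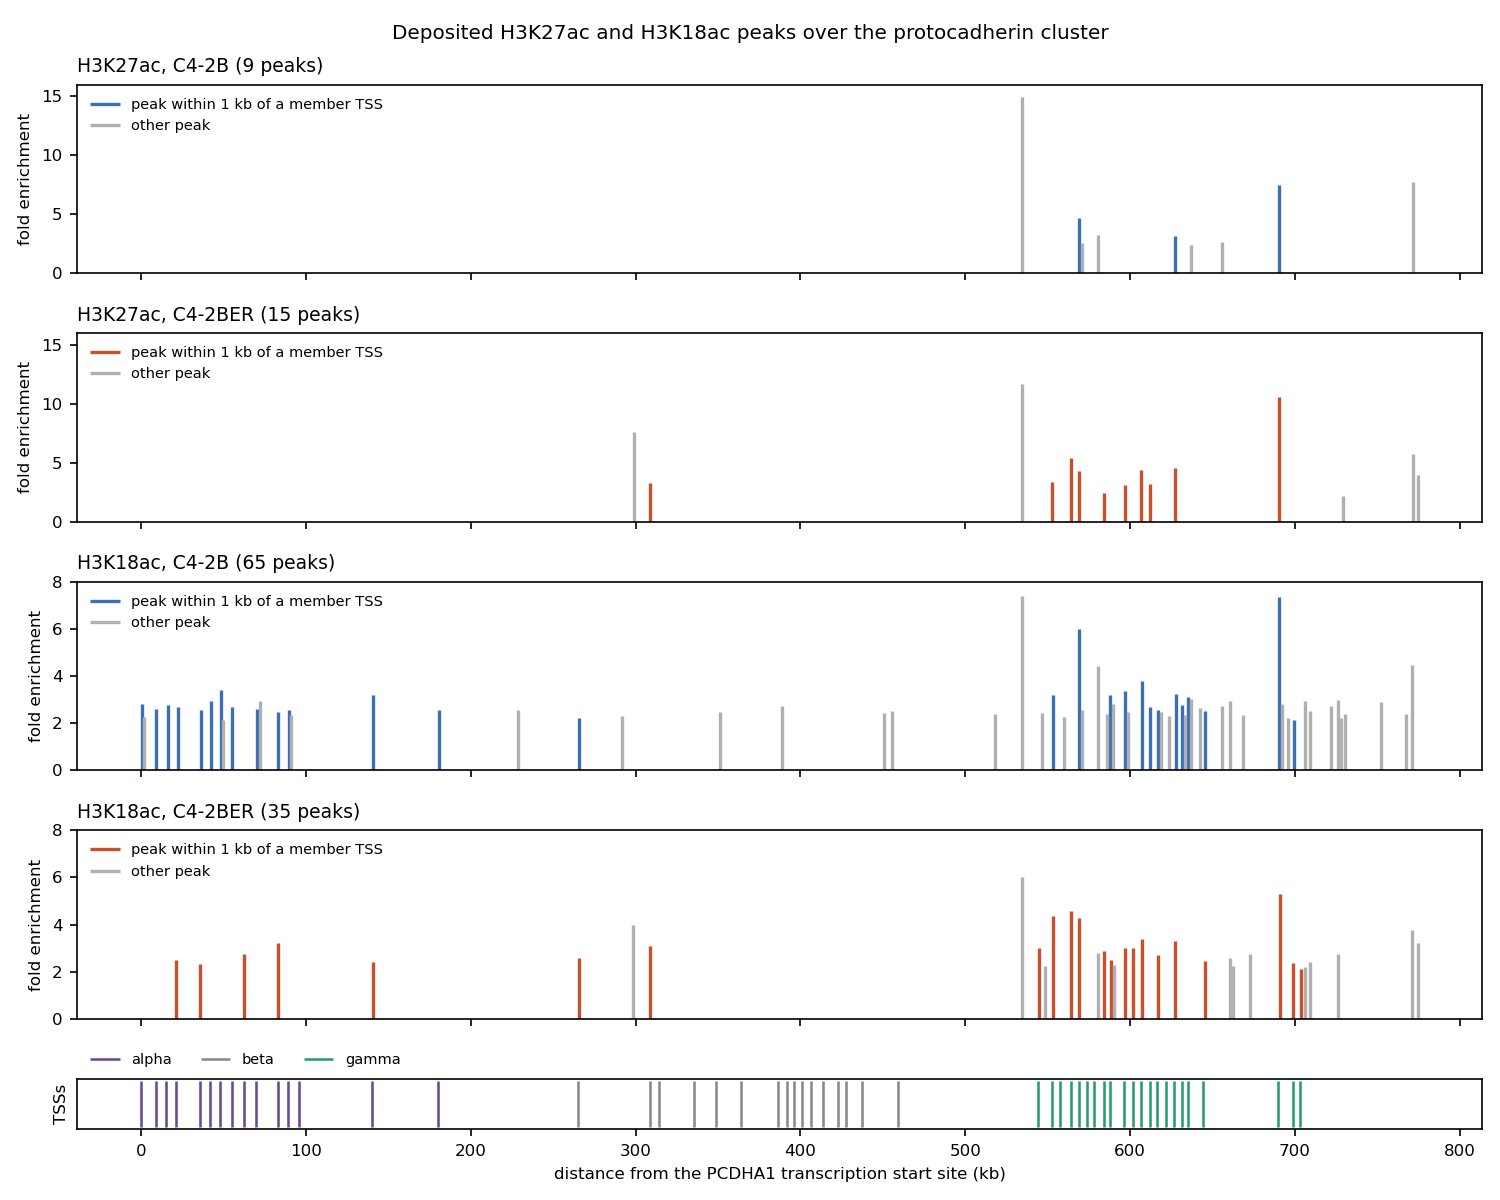
Every deposited peak over the cluster and 50 kb to each side, placed by its distance from the PCDHA1 TSS (x axis, kb) with its fold enrichment (y axis), for each mark and line; coloured lines are peaks within 1 kb of a member TSS, grey lines are other peaks, and the bottom row shows the 53 member TSSs. None of the 9 and 15 H3K27ac peaks lay over the alpha genes, and the 65 and 35 H3K18ac peaks included 17 and 5 over the alpha genes.

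The strongest peak found in C4-2BER only was not at a promoter. It was an H3K27ac peak at chr5:141084668-141085216, between PCDHB1 and PCDHB2 and 9399 bp from the PCDHB2 TSS, in no protein-coding gene but within the non-coding gene PCDHB1-AS1. Its fold enrichment was 7.64, higher than 79.8% of its list, with a −log10 q-value of 44.9. An H3K18ac peak of C4-2BER overlapped it, at chr5:141083812-141085120, with a fold enrichment of 3.96. C4-2B had neither. The middle 200 bases of the H3K27ac peak, chr5:141084842-141085041 on the plus strand, hold a CGCT, in capitals, and 51.0% G and C. Only the plus strand was marked, and the reverse complement, AGCG, is also present. On either strand of 300 bases these 4 letters were in 80.0% of all promoters, so the match is not shown to be the element.
distal peak: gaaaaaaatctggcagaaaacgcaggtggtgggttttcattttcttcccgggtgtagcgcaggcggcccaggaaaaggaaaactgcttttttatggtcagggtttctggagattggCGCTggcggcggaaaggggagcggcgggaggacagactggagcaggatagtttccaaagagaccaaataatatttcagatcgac

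Other peaks away from member promoters were shared or weaker. The strongest H3K27ac peak of the interval lay at the promoter of TAF7, a subunit of the general transcription factor TFIID, between the beta and gamma genes, with 14.9 in C4-2B and 11.7 in C4-2BER. SLC25A2, a mitochondrial ornithine carrier gene, had an H3K18ac peak of 2.37 in C4-2B only, and the third other coding gene, ENSG00000279983, had no promoter peak but overlapped 2 H3K18ac peaks of C4-2B, of 2.43 and 2.51. In the gene of the formin DIAPH1, downstream of the gamma genes, an H3K27ac peak over an annotated exon at chr5:141557550-141558035 had 7.70 in C4-2B and 5.71 in C4-2BER. It lay within 1000 bp of the TSS of the non-coding gene DIAPH1-AS1, at 141558311. An intronic H3K27ac peak at chr5:141560723-141561169 had 3.95 and was in C4-2BER only, together with an H3K18ac peak of 3.21. Whether these peaks are the known enhancers of the cluster was not tested. The 4 H3K27ac regions in C4-2B only all lay in the gamma genes over exons of PCDHGA4, PCDHGA5 and PCDHGA11 and of the pseudogene PCDHGB9P, the highest at chr5:141366324-141367517 with 3.21, where H3K18ac was present in both lines, 4.44 in C4-2B and 2.81 in C4-2BER.

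Genes around the cluster were mostly marked in both lines. Of 35 other protein-coding genes with a TSS within 1 Mb on either side, 29 had H3K27ac in C4-2B and 32 in C4-2BER. H3K27ac was increased at 3 and decreased at 2, against 3.31% and 8.01% of all promoters. These were all among the 23 genes upstream, and 0 of the 12 downstream were called. The median log2 ratio of the 35 genes was −0.48, near the −0.51 of all promoters. For H3K18ac, 0 were increased and 1 decreased, against 2.1% and 6.12%, and the median was −0.37. The number of copies of the locus in either line was not tested. The promoter windows of the members had a median of 42.7% G and C, against 56.0% over all promoters. The median was 41.0% at the 9 alpha genes with decreased H3K18ac and 43.5% at the 6 gamma genes with increased H3K27ac, while over all promoters it was 54.8% where H3K18ac was decreased and 55.6% where H3K27ac was increased. The part of base composition in the results was not tested.

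Genes that shape or bind the protocadherins were described from lists. All 11 genes of CTCF and cohesin had both marks in both lines, and H3K27ac was decreased at 1, CTCF, with 31.0 in C4-2B and 14.7 in C4-2BER, a log2 ratio of −1.08. The other 10 had log2 ratios above −1, RAD21 of cohesin having −0.73, and the list median was −0.70. H3K18ac of CTCF went from 11.6 to 8.75, a log2 ratio of −0.41, which is not a call. Of 10 genes of repression, all were marked in both lines and none was called in either mark. SMCHD1, which represses the cluster, had 28.9 and 19.7 for H3K27ac, and REST, the repressor of neuronal genes, had 37.6 and 19.5, a log2 ratio of −0.95. Relative to the −0.51 of all promoters, no gene of these lists differed by 2-fold.

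Of 13 partners in signalling and processing, all had H3K18ac in both lines and 12 had H3K27ac in both. RET, a receptor kinase known to associate with clustered protocadherins, had an H3K27ac peak of 2.84 in C4-2BER only. Of 12 protocadherins outside the cluster, PCDH11X had both marks in C4-2BER only, 3.42 and 2.75, and was the only listed gene called in both marks. H3K27ac of PCDH7 and PCDH19 was in C4-2B only, and H3K18ac of PCDH8 and PCDH10 was too, while PCDH17 had H3K18ac in C4-2BER only. The labels of the lines were checked against markers. The luminal prostate markers KLK3, KLK2, TMPRSS2, KRT8, KRT18 and HOXB13 had both marks in both lines. Of the neuroendocrine markers, SYP, ENO2 and SNAP25 had H3K27ac in both lines, while CHGA, NCAM1 and INSM1 had none in either. All 6 of these had H3K18ac in both lines. CHGA, NCAM1 and INSM1 thus lacked H3K27ac in the line labelled neuroendocrine-like. H3K27ac of ENO2 was instead higher in that line, with 4.0 in C4-2B and 7.3 in C4-2BER, a log2 ratio of 0.87. SYP and SNAP25 had log2 ratios of −0.53 and −0.67, beside the median of −0.51 over all promoters.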

How the data were processed

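ChIP-Seq reads of H3K27ac and H3K18ac from C4-2B and C4-2BER cells, fixed with disuccinimidyl glutarate and formaldehyde, were trimmed, aligned to hg38 with Bowtie2 and cleared of blacklisted regions, low-quality alignments and duplicates by the authors, who merged the replicates and called broad peaks with macs2. The submitters' processing notes name bcl2fastq 2.17, Trimmomatic 0.33, Bowtie2 2.2.3, Picard and deepTools. The deposited lists give each peak a fold enrichment, a ratio to the local background, and a −log10 q-value, and neither is scaled between lists by the authors. The libraries hold 2 replicates per mark and line, which were pooled, so no replicate error, count or depth is known and no test was made.

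Only the autosomes, X and Y were used. The promoter window was 1000 bp on each side of the Ensembl canonical TSS of GENCODE release 44, with the highest fold enrichment in it as the value. Regions were unions of overlapping peaks. The authors' differential peaks were not used here. Members named in the text were the 3 strongest per mark, line and subcluster, those with changed H3K27ac, the 5 largest rises and falls of H3K18ac, and the C-type genes, and other members are named to account for counts after their values were seen. Some markers are not reported here. The members and lists were chosen with earlier results of these data known. Promoter calls and regions were tested on simulated peak lists, in which every planted change was recovered. Python 3.11.15, numpy 2.4.6, pandas 2.3.3, numba 0.67.0 and matplotlib 3.10.9 were used.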

Additional observations from a re-analysis of the deposited data

How the results depend on the processing

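A window of 500 bp, a window of 2000 bp upstream to 500 bp downstream and every annotated TSS left the counts of members with a peak, the counts of changed promoters and the median ratios where they were. A mean fold weighted by length did so for the counts of changed promoters and the median ratios, and a ratio of at least 1.5 and presence alone for the counts of changed promoters, the results for which they were run. Taking equal numbers of the highest-fold peaks in both lines, chosen after seeing the data, changed none of the counts either. With peaks of at least 4-fold only, members with a peak numbered 2 (C4-2B) and 5 (C4-2BER) for H3K27ac and 2 and 4 for H3K18ac, H3K27ac was increased at 3, all of them gamma genes, and H3K18ac was increased at 2 and decreased at 0, alpha genes included at 0. When the −log10 q-value had to reach 5, H3K18ac was at 3 and 7 members, increased at 4 and decreased at 0, again with 0 alpha genes, while H3K27ac was increased at 6 members, 5 of them gamma genes, PCDHGA10 among them. Coverage with the 4-fold limit was 0.38% and 0.763% for H3K27ac and 0.69% and 0.723% for H3K18ac, and with the q-value limit 0.38%, 1.05%, 0.803% and 1.43% in the same order, while leaving out the flanks moved no coverage by 1.5 times. The lower count of H3K18ac in C4-2BER thus turned round under both limits. The limits kept only the C4-2BER peak at PCDHGA2, and the q-value limit did so at PCDHGA7 and PCDHGA10, all marked in both lines. Centring on all promoters moved the median log2 ratio of H3K18ac from −0.11 to 0.22, and the single-gene ratios of PCDHA4, PCDHGA7 and PCDHGA8 for H3K18ac to 0.22, 0.18 and 0.18 and of PCDHGA4 for H3K27ac to 0.40. The counts for alpha and gamma genes alone were added after seeing the data.

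No paired analysis was possible because the replicates were merged before the peaks were called, and no fit without a replicate was run on the merged lists. They hold no read depth, so a missing peak is not shown to be missing signal.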
